A study of Mus musculus with 15 samples.

Results

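The change from activated B cells to plasmablasts was followed in cultures in which the histone methyltransferase EZH2 was inhibited. Members were chosen by their labels alone: the 3 libraries of plasmablasts (Pb) and the 3 of activated B cells (actB) cultured with the EZH2 inhibitor GSK343, which are 6 of the 15 libraries of the series. They were compared across all 21669 genes of the deposited table that carried a symbol. The question was which plasmablast changes were kept when EZH2 was inhibited, so the matching 6 libraries cultured with the solvent DMSO were used beside them.

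CD43- splenic B cells of female wild-type C57BL/6J mice, 6 to 9 weeks old, were cultured for 3 days. LPS stands for lipopolysaccharide. The labels give LPS, Il2 and Il5 as the stimulation of actB with DMSO, actB with GSK343 and Pb with DMSO, and LPS, Il2 and Il6 for all 3 Pb libraries with GSK343. The culture protocol in the labels names Il5 for every culture, and the study's text also gives IL5 for the cultures with GSK343 as for those without, so the labels of these 3 libraries differ from the other sources and which is right could not be settled here. If the library labels hold, GSK343 and the cytokine cannot be told apart in every value that sets Pb with GSK343 against Pb with DMSO, and the stimulation also differs between Pb and actB with GSK343. Activated cells were sorted as B220+GL7+CD138- and plasmablasts as CD138+, so *Sdc1*, which encodes CD138, was fixed by the gate and its change is not a finding. In bulk libraries like these, fewer cells of a type and less RNA per cell cannot be told apart. The replicate numbers 1 to 3 come from the titles. Whether same-numbered libraries came from 1 animal is not given in the sources used here. The study calls its replicates biological, and p-values measure the spread between these libraries.

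EZH2 is the catalytic subunit of Polycomb repressive complex 2 (PRC2), which places trimethylation on lysine 27 of histone H3 (H3K27me3), a mark of repressed promoters. GSK343 blocks the enzyme's activity and does not remove the protein. During the switch to antibody secretion, Blimp-1 (encoded by *Prdm1*), XBP1 and IRF4 drive the secretory programme, while PAX5, BACH2 and other factors that hold B cell identity are shut off. Blimp-1 is known to work with chromatin-modifying complexes at part of its targets.

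The 6 libraries held between 19421830 and 26307413 reads over genes, so that 3 reads, the limit that a count of 0 allows, corresponded to 0.114 to 0.1545 RPM, the unit of the deposited table (reads scaled to library size). Levels are given as RPKM, the deposited RPM divided by gene length in kilobases. Libraries of the same group correlated at r = 0.991 to 0.995 (Pb) and 0.986 to 0.995 (actB) across genes, and actB with Pb at 0.879 to 0.9, all on log2 values over the genes tested. Replicate 2 stood apart in both groups: the chi-square per degree of freedom between libraries of a group was 7.64 to 29.7 where replicate 2 was one of the pair, and 6.07 (actB) and 3.68 (Pb) between replicates 1 and 3. Over 13 myeloid markers the summed RPKM was 14.09 to 19.79 in actB and 4.419 to 5.43 in Pb with GSK343 (10.09 to 12.04 and 4.889 to 6.399 with DMSO), of which *Itgam* and *Cd68* passed the filter on low values, and *S100a8*, *S100a9* and *Elane* had 0 reads in all 6 libraries. Over 12 T and NK cell markers the sum was 1.585 to 2.991 in actB and 1.905 to 2.961 in Pb, none passed the filter, and *Cd3e* had 0 reads. The part of the myeloid sum in the results below was not tested.

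Plasmablasts differed from activated cells across most of the transcriptome with GSK343 present. Of the 10866 genes that passed the filter (an RPKM of 1 or more in 3 or more of the 12 cultured libraries), 8514 were called at an adjusted p under 0.05, which is 78.4% of genes tested. Of these, 3217 were higher in Pb (29.6%) and 5297 lower (48.7%). Changes of at least 2-fold were found in 910 called genes that were higher and 1046 that were lower, and changes of at least 8-fold in 35 and 90. The tests were limma fits on log2(RPKM + 0.25) in which the replicate number was a block, and every log2 fold change below is on that scale. With DMSO, 8477 genes were called (78.0%), 3367 of them higher (31.0%) and 5110 lower (47.0%).

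Over all genes tested, log2 fold changes had a median of -0.144 with GSK343 and -0.121 with DMSO. When each library was instead scaled to a median ratio of 1, 4133 genes were called higher and 4197 lower with GSK343, and the share of called genes that were higher moved from 37.8% to 49.6%. For small changes the direction therefore depends on the scaling. Changes smaller than this shift are read below with that limit.

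Most plasmablast changes were kept with GSK343. Of the genes called with DMSO, 7754 (91.5%) were called in the same direction with GSK343, and these were 91.1% of the genes called with GSK343. They comprised 2972 genes higher in Pb (88.3% of those with DMSO) and 4782 lower (93.6%). The share kept rose with the size of the change. Of the genes that rose by less than 1.25-fold with DMSO 66.8% were called the same way with GSK343, and of those that rose by 2-fold to 4-fold 99.3%. All 268 genes that fell by at least 4-fold with DMSO were called lower with GSK343, and 222 of the 224 that rose by as much were called higher. Kept means called a second time, which small changes reach less often, so a gene not kept is not shown to have lost its change. Of the 395 genes higher with DMSO and not kept, 313 had the same sign with GSK343 and 8 were called in the difference of the changes. Of the 328 lower ones these were 280 and 9. Without replicate 2 in any group, 89.9% of DMSO calls were kept. The actB and Pb libraries with DMSO are separate from those with GSK343, but they share replicate numbers.

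**Figure D1:**
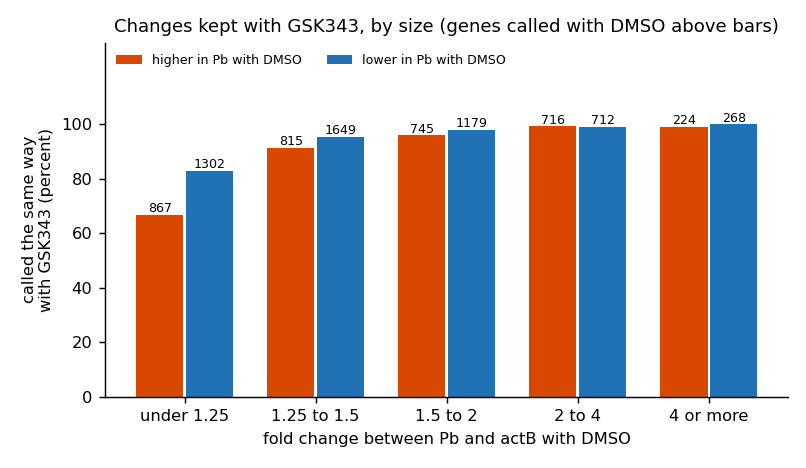
Share of genes called between Pb and actB with DMSO that were called in the same direction with GSK343 (y axis, percent), by the fold change with DMSO (x axis). Orange bars are genes higher in Pb and blue bars genes lower in Pb, and the number above each bar is the number of genes called with DMSO. The share rose from 66.8% and 82.9% under 1.25-fold to 99.1% and 100% at 4-fold or more. Small changes pass the threshold less often, so the share does not measure a loss of the change.

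Only 13 genes changed by at least 2-fold with DMSO and were not called in the same direction with GSK343. Of these, 10 were snoRNA, scaRNA or microRNA genes of 53 to 118 bases in the table. The others included *Clgn* (calmegin, a chaperone) and *BC021614*, and neither was called in the difference between the changes. *Clgn* had a mean of 1.503 RPKM in actB and 0.486 in Pb with DMSO, and of 1.55 and 1.26 with GSK343. Its difference was 1.02 ± 0.222 (log2, SE, adjusted p 0.0519).

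Across the 10866 genes the log2 fold changes with GSK343 and DMSO correlated at Pearson r = 0.969, given as a description, since genes are not independent and same-numbered libraries may share a source. Kept genes that were higher in Pb had a median log2 fold change of 0.660 with DMSO and 0.645 with GSK343, and those that were lower -0.532 and -0.557. Among the 268 genes that fell by at least 4-fold with DMSO, the median was -2.53 with DMSO and -2.71 with GSK343.

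**Figure D2:**
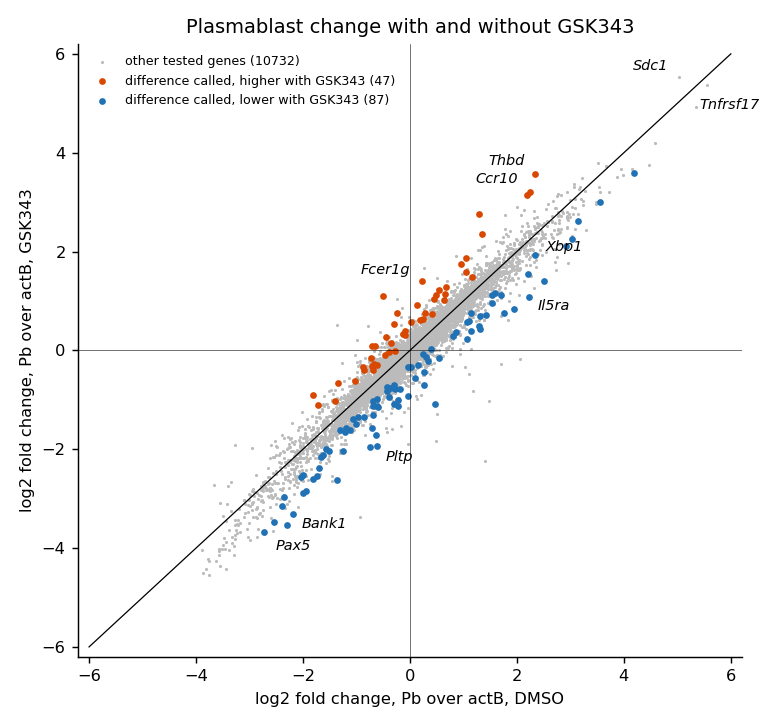
Log2 fold change of Pb over actB for each of the 10866 genes tested, with DMSO (x axis) and with GSK343 (y axis), on the log2(RPKM + 0.25) scale. Grey points are genes not called in the difference of the changes, GSK343 minus DMSO. Orange points are the 47 genes called with a positive difference and blue points the 87 called with a negative one. The diagonal marks equal change.

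The plasma cell programme rose with GSK343. Of 22 listed genes, all of which were tested, 20 were higher in Pb and 2 lower, with a median log2 fold change of 1.89 (2.02 with DMSO), beside -0.144 for all genes, 29.6% of which were higher and 48.7% lower. The list holds *Sdc1*, and without it, a choice made after the values were seen, 19 of 21 genes were higher and 2 lower, with medians of 1.75 with GSK343 and 1.94 with DMSO. *Prdm1* (Entrez 12142, mm9 chr10:44156983-44248307, minus strand) was at 33.1, 33.9 and 41.1 RPKM in actB and 116, 112 and 124 in Pb. Every Pb library lay above every actB library, as in 3071 of the 10866 genes tested. In 5032 others every Pb library lay below, so groups without overlap are the usual state here. The change of *Prdm1* was 1.701 ± 0.0506 (log2 fold change, SE, adjusted p 3.68e-10), with 31.3 and 121 RPKM as the means with DMSO. *Xbp1*, the transcription factor of the secretory and unfolded protein responses, was at 204, 219 and 237 RPKM in actB and 984, 1044 and 1056 in Pb, a change of 2.23 ± 0.0356 (log2 fold change, SE, adjusted p 3.03e-11). Here too the groups did not overlap. *Irf4*, a factor needed for plasma cell formation, was at 111, 109.8 and 125 RPKM in actB and 300.3, 323 and 315 in Pb. It rose by 1.44 with GSK343 and by 1.76 with DMSO, and its difference of -0.32 ± 0.0751 (log2, SE, adjusted p 0.0643) missed the threshold in this fit.

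Genes of antibody assembly and survival rose as well. *Jchain*, the joining chain of secreted IgM and IgA, was at 200.3, 227 and 265 RPKM in actB and 1670, 1776 and 1848 in Pb, a change of 2.94 ± 0.0843 (log2 fold change, SE, adjusted p 3.1e-10). *Mzb1*, an ER cochaperone of immunoglobulin assembly, was at 477, 569.7 and 530.5 RPKM in actB and 1591, 1858 and 1720 in Pb and rose by 1.71 against 1.69 with DMSO. *Tnfrsf17*, which encodes the survival receptor BCMA, was at 0.281, 0.3498 and 0.158 RPKM in actB and 21.6, 19.5 and 20.9 in Pb. The groups did not overlap, which the naming rule for the largest rises required. The change was 5.37 ± 0.123 (log2 fold change, SE, adjusted p 1.27e-10). The pseudocount of 0.25 RPKM makes this fold an understatement because the actB levels are close to it. *Txndc5*, *Fkbp11* and *Pou2af1* rose by 2.74, 3.68 and 1.28. The lower members were *Zbtb20* (-1.22), a transcriptional repressor, and *Bhlhe41* (-0.22), a repressor known from B-1a cells, which had been higher in Pb with DMSO (0.33) and was called in the difference. The fall of *Bhlhe41* with GSK343 lost its call in 9 of 28 alternatives, where its log2 fold change ranged from -0.31 to -0.077, and under median scaling, quantile, TMM or RLE normalisation the list held 1 lower gene. The 12 immunoglobulin constant region genes listed were not analysed here. *Cd93*, given below, was the other member called in the difference.

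**Figure D3:**
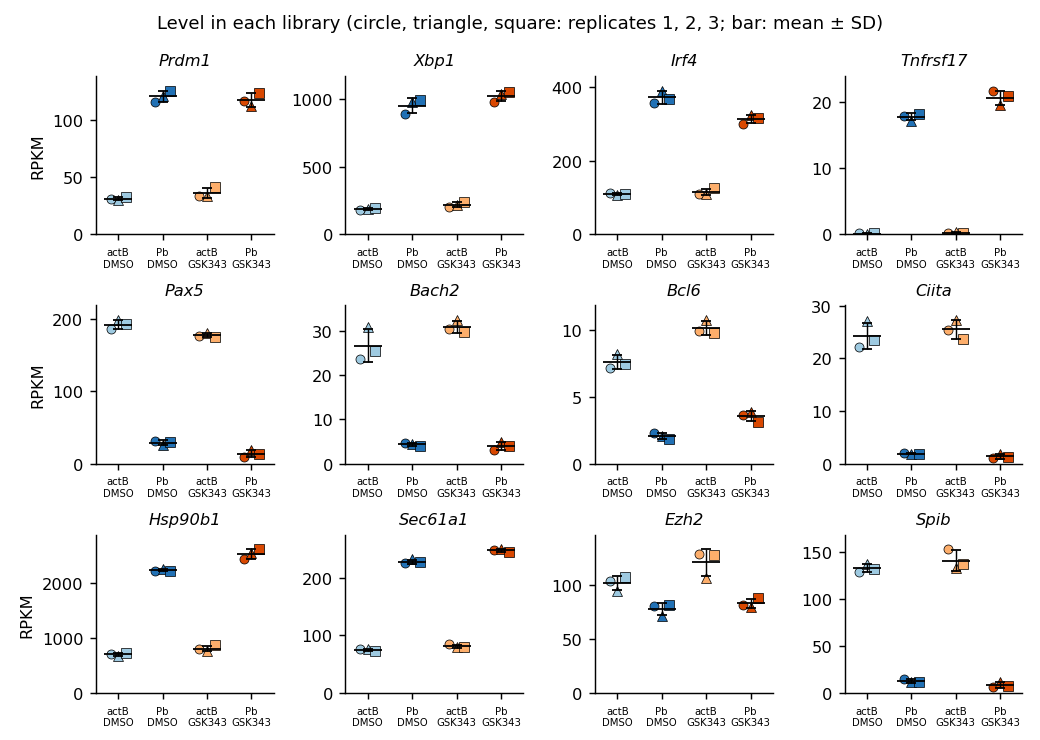
RPKM of 12 genes in each library (y axes, linear, starting at 0). Columns are actB with DMSO, Pb with DMSO, actB with GSK343 and Pb with GSK343, circles, triangles and squares are replicates 1, 2 and 3, and bars give the mean and SD (n = 3). *Prdm1*, *Xbp1*, *Irf4* and *Tnfrsf17* were higher, and *Pax5*, *Bach2*, *Bcl6*, *Ciita* and *Spib* lower, in Pb than in actB with either treatment.

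The unfolded protein response, which expands the folding capacity of the endoplasmic reticulum (ER), rose with GSK343. Of 31 listed genes 30 were higher in Pb and 1 lower with GSK343, the same split as with DMSO, and the median was 1.47 against 1.48. None was called in the difference, and the differences of the members ranged from -0.26 to 0.23 on the log2 scale. *Hsp90b1*, the ER chaperone GRP94, was at 796, 760.3 and 863 RPKM in actB and 2429, 2537 and 2606 in Pb, a change of 1.65 ± 0.0444 (log2 fold change, SE, adjusted p 2.21e-10). *Hspa5*, the ER chaperone BiP, was at 482, 436 and 490.3 RPKM in actB and 1054, 1107 and 1097 in Pb. It rose by 1.21 with GSK343 and 1.21 with DMSO, a difference of 0.0033 ± 0.0719 (log2, SE, adjusted p 0.989). *Calr*, *Pdia4* and *Pdia3* rose by 1.31, 1.91 and 1.02. The 1 member that was lower was *Trib3* (-0.64), a pseudokinase induced by the stress factors ATF4 and CHOP rather than a folding enzyme.

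Promoters are shown for these genes because the ER stress response element (ERSE) is the sequence through which XBP1 and ATF6 act on them. The element was searched as CCAAT, any 9 bases, CCACG on both strands of the 250 bases before each RefSeq start (GRCm38.p6), and 8629 of the 10866 genes tested matched an entry by Entrez ID. It was found in 16 of these genes (0.185%). Of the 26 matched members of the list that were higher in Pb, 9 held it (34.6%). The stretches below run 5′ to 3′ in the direction of transcription, with the letters of the element in capitals.

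Hspa5: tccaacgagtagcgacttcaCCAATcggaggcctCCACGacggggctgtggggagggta
Hsp90b1: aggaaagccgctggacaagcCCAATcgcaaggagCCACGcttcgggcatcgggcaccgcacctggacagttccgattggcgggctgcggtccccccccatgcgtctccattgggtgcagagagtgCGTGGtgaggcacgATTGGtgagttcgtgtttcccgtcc
Calr: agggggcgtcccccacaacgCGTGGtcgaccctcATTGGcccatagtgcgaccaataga
Pdia6: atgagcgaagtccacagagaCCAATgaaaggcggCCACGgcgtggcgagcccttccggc
Creld2: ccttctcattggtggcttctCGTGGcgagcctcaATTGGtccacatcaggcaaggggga
Dnajc3: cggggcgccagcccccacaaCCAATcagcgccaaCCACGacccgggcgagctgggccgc

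The stretch of *Hspa5* lies at chr2:34772005-34772063 (plus strand), that of *Hsp90b1*, which holds 2 copies, at chr10:86705513-86705676 (minus strand), and that of *Calr* at chr8:84847055-84847113 (minus strand). Those of *Pdia6*, *Creld2* and *Dnajc3* lie at chr12:17266471-17266529 (plus strand), chr15:88819500-88819558 (plus strand) and chr14:118937807-118937865 (plus strand). In *Hsp90b1* the copies read as CCAAT to CCACG and, on the other strand, as CGTGG to ATTGG. Of the 16 genes with the element, 11 were higher in Pb, 3 lower and 2 not called, beside 29.6% higher and 48.7% lower of all genes. The list itself supplied 9 of the 16, all of them higher, and 7 lay outside it. Outside the list, *Derl3*, an ER-associated degradation factor, rose by 2.20 and *Alg12*, a mannosyltransferase, by 0.44. *Adcy3*, *Pan2* and *Hnrnpa3* were lower (-0.98, -0.401 and -0.37), and *Xlr3a* and *Xlr3b* were not called. The XBP1 core TGACGTGG was in none of the 27 matched members tested and in 0.939% of matched genes, which says only that these letters are not in these windows.

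ER import and glycosylation rose. All 36 listed genes were higher in Pb with GSK343 and with DMSO, with medians of 1.23 and 1.15. *Sec11c*, a subunit of the signal peptidase, was at 326, 345 and 359.5 RPKM in actB and 1016, 1008 and 1010 in Pb, a change of 1.56 ± 0.0422 (log2 fold change, SE, adjusted p 2.22e-10). *Ssr2* of the translocon-associated complex, *Sec61b* of the translocon, and *Ddost* and *Rpn2* of the oligosaccharyltransferase rose by 1.97, 1.29, 1.88 and 1.62. Of 32 genes of ER to Golgi transport, 30 were higher and 2 lower in both settings, with medians of 1.19 and 1.13. *Tmed2*, *Tmed10* and *Tmed9*, cargo receptors of the p24 family, rose by 1.25, 1.45 and 1.19, and *Kdelr3*, a receptor that returns ER proteins, by 3.497. The lower members, *Copg2* (-0.93) and *Sec24b* (-0.48), are coat subunits with a paralogue that rose (*Copg1* 0.803, *Sec24a* 1.96). No gene of these 2 lists was called in the difference. The lower members of this list and of the others were picked after their values were seen.

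Transcription factors of B cell identity fell with GSK343. Of 20 listed genes 19 were lower in Pb, none was higher, and *Tcf3* was not called (0.036). The median was -1.16 with GSK343 and -0.98 with DMSO. After median scaling 17 were lower and 1 higher. *Pax5*, the factor that commits cells to the B lineage, was at 177, 180.5 and 175 RPKM in actB and 9.28, 18.6 and 13.6 in Pb. The groups did not overlap, and the change was -3.71 ± 0.175 (log2 fold change, SE, adjusted p 8e-09). With DMSO its mean was 192 RPKM in actB and 29.1 in Pb. The larger fall with GSK343, a difference of -0.99 ± 0.248 (log2, SE, adjusted p 0.0799), missed the threshold, and replicate 2 held the highest Pb level with GSK343.

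*Bach2*, a repressor of *Prdm1*, was at 30.3, 32.4 and 29.7 RPKM in actB and 3.07, 4.83 and 3.88 in Pb, a change of -2.92 ± 0.0994 (log2 fold change, SE, adjusted p 7.84e-10). *Bcl6*, the germinal centre repressor, was at 9.94, 10.8 and 9.81 RPKM in actB and 3.67, 3.895 and 3.12 in Pb and fell by 1.46 on the log2 scale with GSK343 and 1.76 with DMSO. *Spib* had 141 ± 10.8 RPKM in actB and 8.71 ± 3.02 in Pb (SD, n = 3), a change of -4.03. *Irf8* and *Ikzf3* changed by -1.84 and -0.85. *Pou2f2*, which encodes OCT2, was the 1 member called in the difference, with -1.56 ± 0.0511 (log2 fold change, SE, adjusted p 6.18e-10) with GSK343 and -1.203 with DMSO.

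Surface genes of B cells were mostly lower. Of 22 genes of the receptor and the B cell surface 19 were lower in Pb and 3 higher (17 and 3 after median scaling), with a median of -1.28 (-1.16 with DMSO). *Cd22*, an inhibitory coreceptor, was at 206, 255 and 216 RPKM in actB and 7.55, 17.04 and 11.9 in Pb, a change of -4.25 ± 0.179 (log2 fold change, SE, adjusted p 3.39e-09). The receptor's signalling chains *Cd79a* and *Cd79b* changed by -0.41 and -0.67. Higher members were *Blnk* (0.64), the adaptor of the receptor, *Vpreb3* (0.16) and *Ptprc* (0.12), which encodes CD45 and whose B220 form was a sort marker. *Ms4a1*, which encodes CD20, was called in the difference. It was at 196, 196 and 228 RPKM in actB and 31.8, 44.3 and 43.4 in Pb, and its change of -2.38 with GSK343 stood against -1.701 with DMSO.

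MHC class II genes were mostly lower. Of 13 listed genes 11 were lower and 2 higher with either treatment, with medians of -1.96 and -1.88, and none was called in the difference. *Ciita*, the master regulator of the class, was at 25.4, 27.3 and 23.8 RPKM in actB and 1.04, 1.85 and 1.21 in Pb, a change of -4.03 ± 0.127 (log2 fold change, SE, adjusted p 4.88e-10). *H2-Ab1*, *H2-Eb1* and *H2-Aa* changed by -1.41, -1.96 and -1.703, and *Cd74*, the invariant chain, by -0.43 from a mean of 1622 to 1208 RPKM. The higher members, *Lgmn* (1.32) and *Ctss* (0.24), encode lysosomal proteases that also act outside this pathway. A motif bound by Blimp-1, AGNGAAAG on either strand of the 250 bases before the start, was in 1 of 8 matched lower members of this list, 3 of 15 of the transcription factors and 1 of 13 of the surface genes, beside 7.82% of matched genes.

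Genes of activation and NF-kB signalling were mostly lower. Of 26 listed genes 22 were lower, 3 higher and 1 not called with GSK343. *Cd83* had 126 ± 11.3 RPKM in actB and 14.02 ± 3.38 in Pb (SD, n = 3). *Nfkbia* and *Batf* changed by -0.79 and -1.46. *Gadd45b* (1.45), *Egr2* (1.097) and *Egr1* (0.89), immediate response genes, were the members that rose.

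Homing receptors split. Of 16 genes 6 were higher and 10 lower with GSK343. The balance of directions is near that of all genes, 29.6% higher and 48.7% lower. *Cxcr4*, which guides plasma cells to the bone marrow, was at 33.8, 33.9 and 32.8 RPKM in actB and 120.2, 113 and 113 in Pb and rose by 1.78, against 1.76 with DMSO. The follicle receptor *Cxcr5* changed by -1.25. *Itgb2*, *Cd44* and *Itgal* changed by 0.46, 1.06 and -0.53. Of this list 3 genes were called in the difference: *Ccr10*, given below, rose more with GSK343, and the sphingosine phosphate receptors *S1pr1* and *S1pr4* had a lower difference. *S1pr1* was at 6.14, 5.25 and 6.60 RPKM in actB and 5.21, 4.11 and 5.18 in Pb, a change of -0.299 where DMSO gave 0.15. *S1pr4* changed by -0.83 against -0.42.

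**Figure D4:**
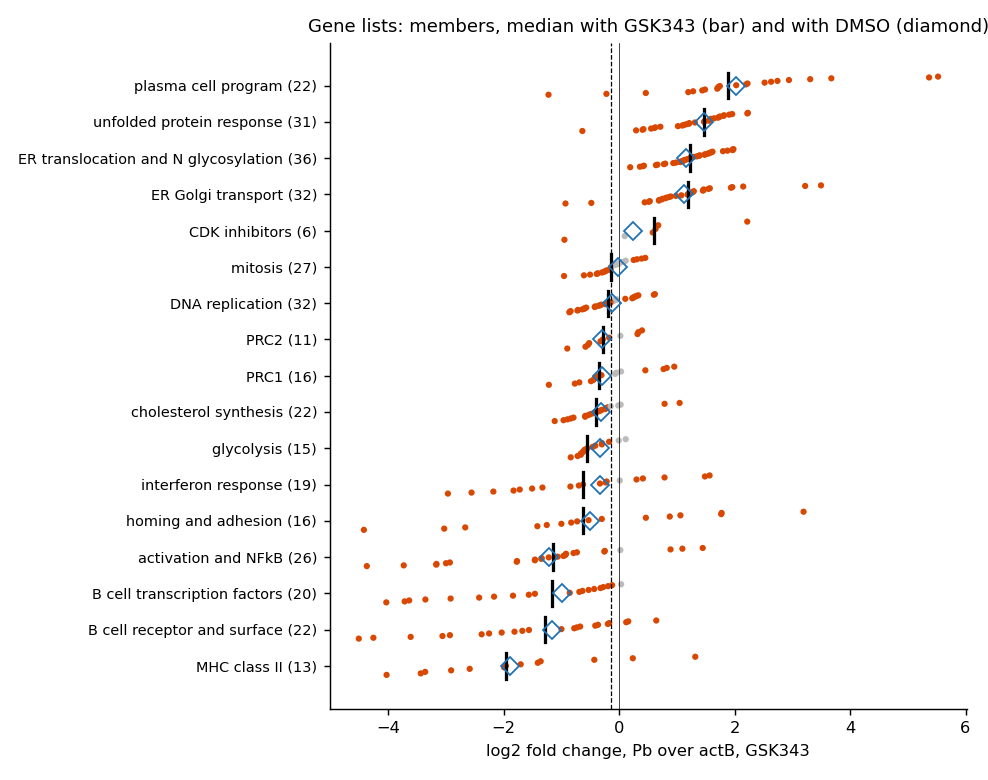
Log2 fold change of Pb over actB with GSK343 (x axis) for the tested members of 17 gene lists (y axis, number of tested members in brackets). Orange points passed the test and grey points did not, black bars are the list medians with GSK343, blue diamonds those with DMSO, and the dashed line is the median of all genes (-0.144). The plasma cell and ER lists lie highest and the MHC class II and B cell lists lowest.

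Cell cycle genes changed by small amounts, and for mitotic genes the balance of directions depended on the scaling. Of 32 DNA replication genes 9 were higher and 18 lower, with a median of -0.19, and after median scaling 9 were higher and 15 lower, with a median of -0.05. The shares before median scaling are near those of all genes, 29.6% higher and 48.7% lower. After median scaling 4133 of all 10866 genes were higher and 4197 lower. Of 27 mitotic genes 4 were higher and 14 lower, with a median of -0.14, and after median scaling 10 were higher and 6 lower. *Mki67*, a marker of cycling cells, was at 222, 177 and 211 RPKM in actB and 284, 248 and 265 in Pb and rose by 0.39, against 0.63 with DMSO. The E2F motifs TTTCCCGC and TTTGGCGC were each in 3 of 25 matched replication genes, beside 2.18% and 1.01% of matched genes, counted on both strands. *Rrm2* rose by 0.33, *Mcm3* changed by -0.59 and *Pcna* by -0.089 (adjusted p 0.096, not called, with the sign turned by median scaling). Of 6 tested CDK inhibitors 4 were higher and 1 lower. *Cdkn2a*, a gene known as a target of EZH2, was called in the difference: it was at 15.9, 19.3 and 14.4 RPKM in actB and 21.9, 28.1 and 24.5 in Pb, a change of 0.58 ± 0.0749 (log2 fold change, SE, adjusted p 2.78e-05) with GSK343, and at 21.1 and 21.4 RPKM on average with DMSO. *Cdkn1a* changed by 0.63 with GSK343 and 0.16 with DMSO, a difference of 0.47 ± 0.136 (log2, SE, adjusted p 0.12).

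The target of the inhibitor was itself lower in Pb. *Ezh2* (Entrez 14056) was at 128, 106 and 127 RPKM in actB and 80.8, 79.4 and 87.5 in Pb, with no overlap between groups, a change of -0.54 ± 0.0437 (log2 fold change, SE, adjusted p 6.59e-07), against -0.38 with DMSO. The drug acts on the protein, so this level does not check the labels. Of 11 genes of PRC2 7 were lower and 3 higher, and after median scaling 6 and 4. *Eed*, *Rbbp7* and *Rbbp4* changed by -0.58, -0.52 and -0.28, and *Suz12* by 0.023 (not called). Of 16 PRC1 genes 9 were lower and 4 higher, close to the 48.7% lower and 29.6% higher of all genes. After median scaling 8 were lower and 5 higher. Among the PRC1 genes were *Cbx7* (0.77) on one side and *Bmi1* (-0.41), *Pcgf5* (-0.43) and *Rnf2* (-0.49) on the other. The H3K27 demethylases *Kdm6a* and *Kdm6b* changed by 0.22 and -0.51. No gene of the 3 lists was called in the difference.

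The study listed genes with primed promoters, which were already accessible in undivided B cells in vivo and whose expression was higher in the most divided cells. The list comes from other mice, but the choice used a related rise in expression and is not independent evidence of direction. Of the 102 tested genes with H3K27me3 at the promoter, 59 were higher in Pb and 20 lower with GSK343 (60 and 24 with DMSO). Of the 649 without the mark 351 were higher and 195 lower (348 and 185). The medians were 0.29 and 0.25, beside -0.144 for all genes, of which 29.6% were higher and 48.7% lower. After median scaling 68 of the marked genes were higher and 11 lower, and of the unmarked genes 395 and 135. Of all 10866 genes 4133 were then higher and 4197 lower. None of the 102 and 2 of the 649 were called in the difference between the changes, beside 1.23% of all genes. A shift with GSK343 that is the same in actB and Pb cancels in this difference. The study instead compared GSK343 with DMSO within each cell type, and reported a larger increase for primed genes with the mark than without it. *Rgcc*, a cell cycle regulator with a marked promoter, was at 5.95, 5.59 and 4.93 RPKM in actB and 63.9, 56.6 and 55.04 in Pb and rose by 3.36, against 3.07 with DMSO. *Wipi1*, *Fndc3b* and *Saraf* of the marked set rose by 3.03, 2.75 and 2.597, and *Zfp658* by 2.69, while *Gar1*, *Gcsh*, *Nucks1*, *Eef1e1* and *E2f8* changed by -0.89, -0.67, -0.65, -0.59 and -0.58.

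Among other genes that the study linked to EZH2, *Atp1b1*, a subunit of the sodium pump, and *Emc7*, a subunit of an ER membrane insertase, rose by 2.24 and 1.32. *Gsn*, which encodes gelsolin, was at 19.6, 25.9 and 20.02 RPKM in actB and 1.65, 3.004 and 1.57 in Pb. It fell by 3.29 on the log2 scale with GSK343 and 3.08 with DMSO, and its actB means were 12.9 RPKM with DMSO and 21.8 with GSK343.

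Metabolic and interferon genes were mostly lower, beside 48.7% lower and 29.6% higher of all genes. Of 15 glycolysis genes 13 were lower and none higher, with a median of -0.55 (11 lower and 1 higher after median scaling). *Ldha* was at 508, 589 and 551 RPKM in actB and 289, 409 and 354 in Pb, and *Pgk1* and *Tpi1* changed by -0.41 and -0.59. Of 22 cholesterol synthesis genes 17 were lower and 2 higher (14 and 3 after median scaling), with *Insig1*, a brake on the pathway, up by 1.05. Of 19 interferon response genes 13 were lower and 5 higher (11 and 6 after median scaling), with *Bst2* up by 1.49. In *Bst2* replicate 2 was highest in both groups (47.3, 73.1 and 47.9 RPKM in actB and 136, 203 and 133 in Pb).

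The 10 largest falls picked by the naming rule included several surface receptors. *Ffar1*, a fatty acid receptor, was at 49.0, 50.9 and 47.8 RPKM in actB and 1.46, 2.05 and 2.22 in Pb, a change of -4.54 ± 0.131 (log2 fold change, SE, adjusted p 3.18e-10). *Fcer2a* (CD23), *Pirb* (an inhibitory immunoglobulin-like receptor), *Tlr9* and *Tlr1* (Toll-like receptors) and *Ceacam1* changed by -4.51, -4.41, -4.21, -4.13 and -4.06, and *Lacc1*, a laccase-like enzyme, by -4.26. The rises picked by the same rule, apart from genes given elsewhere, were *Ly6c2* (4.93), a surface antigen, *Cacna1h* (4.19), a calcium channel, *Slpi* (3.75), a secreted protease inhibitor, *Hsd11b1* (3.72), which activates glucocorticoids, *Cpeb3* (3.58), an RNA-binding protein, and *Evi5* (3.55). *Ly6c2* was at 3.702, 6.94 and 3.35 RPKM in actB and 102, 238 and 118 in Pb, with replicate 2 highest in both groups.

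The change in Pb was called different with GSK343 for few genes, and genes not called are not shown to change equally. The difference of the changes, GSK343 minus DMSO, was called for 134 genes, 1.23% of genes tested, with 47 higher (0.433%) and 87 lower (0.801%). At an unadjusted p under 0.05 there were 1727. The 95% interval of the difference was ±0.199 on the log2 scale for the median gene. The count is not stable: it was 21 without the replicate block, 246 without replicate 2 in any group, and 0 without replicate 1 or without replicate 3 in any group, with fewer libraries in these last 3 fits. By edgeR on recovered reads it was 285 (TMM), and with array quality weights 493. Single libraries also moved it: it was 14 without replicate 3 of actB with GSK343, 19, 28 and 230 without replicates 3, 1 and 2 of Pb with GSK343, and 47 to 70 without any 1 of the actB libraries with DMSO or without replicate 1 of actB with GSK343. Without replicates 1 or 3 of Pb with DMSO it was 56 and 52. If it holds, the stimulation label of the Pb libraries with GSK343 bears on every gene called here. Of the 26 differences picked by the naming rule, none kept its call under every alternative and none changed sign.

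Of the 134 genes 58 were lower in Pb with both treatments, and in 46 of these the fall was larger with GSK343. A further 45 were higher in Pb with both treatments, 26 of them with a smaller rise. In the 87 genes with a lower difference the median log2 ratio of GSK343 to DMSO was 0.294 in actB and -0.301 in Pb, and in the 47 with a higher one -0.0558 in actB and 0.571 in Pb, given as a description since these genes were chosen for it. Opposite directions were called for 16 genes, and in 8 of them the difference was called too: *Myb*, *Epha2* and *Phlda3* were lower in Pb with DMSO and higher with GSK343, and *Pik3cd*, *S1pr1*, *Bhlhe41*, *Plekha1* and *Rap1gap2* the reverse, of which the change of -0.13 in *Pik3cd* with GSK343 is smaller than the median shift of all genes.

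The genes named first are those with a higher difference. *Thbd*, which encodes thrombomodulin, was at 0.746, 0.807 and 0.789 RPKM in actB and 13.6, 9.26 and 13.7 in Pb, and at a mean of 0.164 and 1.88 RPKM in actB and Pb with DMSO. The Pb libraries with GSK343 lay above all others. Its change was 3.57 with GSK343 and 2.34 with DMSO, and the difference was 1.23 ± 0.200 (log2, SE, adjusted p 0.0231). This size depends on the scale, since the actB mean with DMSO is below the pseudocount: it ranged from 0.47 with edgeR on recovered reads to 1.57 with a pseudocount of 1, and its call was lost in 13 of 27 alternatives. *Ccr10*, a mucosal homing receptor of IgA plasma cells, was at 1.12, 1.01 and 1.16 RPKM in actB and 11.7, 11.5 and 13.1 in Pb, with DMSO means of 0.363 and 2.63. Its difference was 0.96 ± 0.137 (log2, SE, adjusted p 0.0145), ranging from 0.63 to 1.23 over the alternatives. The call was lost in 8 of 27 of them, among these edgeR on recovered reads. *Cd93*, a receptor of long-lived plasma cells, was at 20.7, 25.8 and 21.4 RPKM in actB and 83.1, 72.1 and 73.5 in Pb and rose by 1.75 against 0.95 with DMSO.

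*Fcer1g*, the common gamma chain of Fc receptors, was at 2.08, 2.34 and 2.13 RPKM in actB and 7.39, 5.39 and 5.87 in Pb, while the DMSO means were 1.44 and 1.73. It was called with GSK343 and not with DMSO, and the difference itself was 1.17 ± 0.148 (log2, SE, adjusted p 0.00852). *Myb*, a factor of progenitor cells and of plasma cell homing, was at 9.804, 9.06 and 9.11 RPKM in actB and 15.4, 12.6 and 13.1 in Pb, and with DMSO its mean went from 9.87 to 8.003. The difference was 0.83 ± 0.0736 (log2, SE, adjusted p 0.00221). *Serpinb1a*, an intracellular protease inhibitor, fell in both settings, by 0.91 on the log2 scale with GSK343 and 1.81 with DMSO. *Gpnmb*, *Serpine2*, *Tigit* and *Samsn1* had differences of 0.95, 1.02, 0.83 and 0.78. That of *Gpnmb* ranged from 0.35 to 1.16, with its lowest values on recovered reads, where it was not called. It lost its call in 8 of 27 alternatives.

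The next genes had a lower difference. *Bank1*, a scaffold of B cell receptor signalling, was at 40.1, 44.7 and 44.2 RPKM in actB and 2.66, 4.49 and 3.53 in Pb. In DMSO it went from a mean of 44.8 to 8.88 RPKM, so the actB levels were close and the Pb level with GSK343 was lower. The difference was -1.23 ± 0.145 (log2, SE, adjusted p 0.00658). *Scimp*, an adaptor of MHC class II signalling, *Camkk1*, a kinase, *Pltp*, a phospholipid transfer protein, *Myo1f*, a myosin, *Ifitm1*, an interferon-induced membrane protein, and *Shank1*, a scaffold, were higher in every actB library with GSK343 than in every actB library with DMSO. *Camkk1* was at 12.1, 10.2 and 10.99 RPKM in actB and 1.33, 1.75 and 1.73 in Pb, and with DMSO at means of 5.72 and 2.09. *Pltp* was at 7.72, 6.65 and 6.90 RPKM in actB and 1.24, 2.16 and 1.71 in Pb, against 1.67 and 1.02 with DMSO. The differences were -1.26 for *Camkk1*, -1.32 for *Pltp*, -1.201 for *Scimp*, -1.11 for *Myo1f*, -1.08 for *Ifitm1* and -0.93 for *Shank1*. Over the alternatives that of *Shank1* ranged from -1.23 to -0.34 and that of *Myo1f* from -1.27 to -0.76, and they lost their calls in 11 and 18 of 27.

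**Figure D5:**
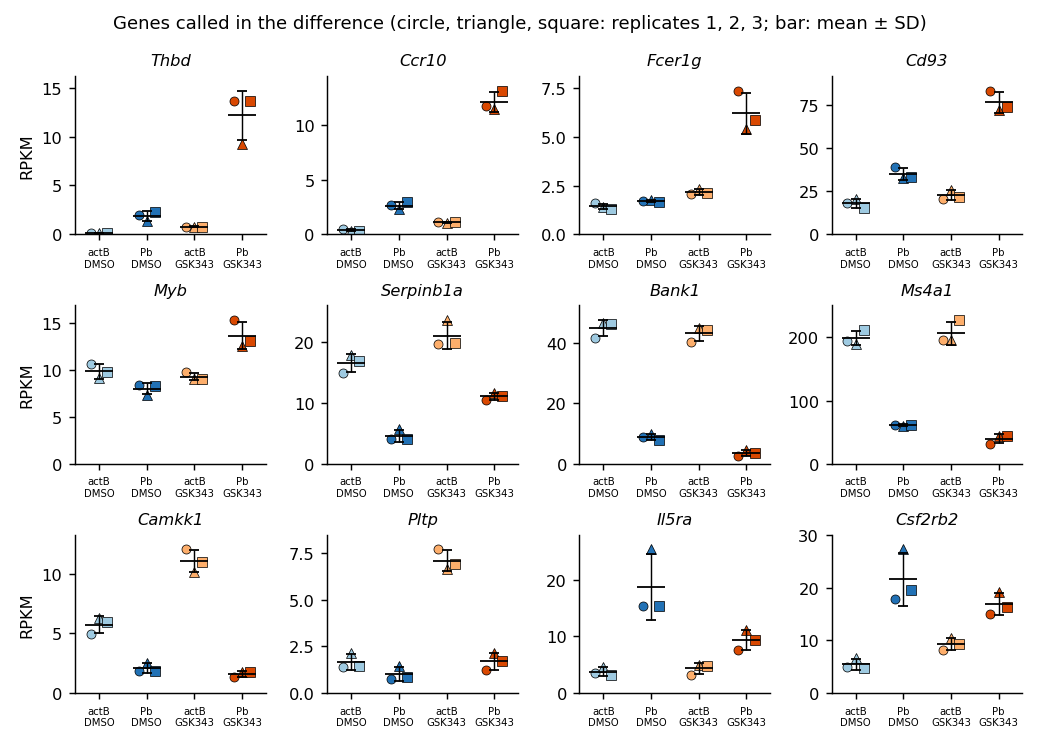
RPKM of 12 genes called in the difference in each library (y axes, linear, starting at 0), with the columns, symbols and bars (mean and SD, n = 3) of the plot of regulators. *Thbd*, *Ccr10*, *Fcer1g*, *Cd93* and *Myb* were highest in Pb with GSK343, *Bank1* and *Ms4a1* lowest there, and *Camkk1* and *Pltp* highest in actB with GSK343.

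The interleukin 5 receptor was among the genes called in the difference. *Il5ra*, its ligand-binding chain, was at 3.24, 4.96 and 4.84 RPKM in actB and 7.64, 11.2 and 9.32 in Pb, and with DMSO at means of 3.75 and 18.7 RPKM. The rise was smaller with GSK343, with a difference of -1.15 ± 0.169 (log2, SE, adjusted p 0.0145). *Csf2rb*, the shared beta chain, rose by 1.12 against 1.71. *Csf2rb2*, a paralogue of *Csf2rb* and not counted here as part of this receptor, rose by 0.84 against 1.94. *Socs2*, a feedback inhibitor of cytokine signalling, rose by 1.54 against 2.21. Its mean was higher with GSK343 in both cell types, 11.5 against 4.08 RPKM in actB and 33.8 against 19.8 in Pb. All 4 were called in the difference, and *Csf2rb* and *Socs2* were picked after their values were seen. The same choice held *Il6st*, *Il6ra*, *Il2ra*, *Il2rb*, *Cish* and *Socs3*, and none of these was called in the difference. That of *Cish* was -0.61 (log2, adjusted p 0.0541) and that of *Socs3* -0.60 (log2, adjusted p 0.0855). *Il6st*, the signal chain of the interleukin 6 receptor, rose by 1.95 against 1.895, a difference of 0.054. If the Il6 label of the Pb libraries with GSK343 holds, inhibitor and cytokine cannot be told apart here. *Tspan15*, a tetraspanin, rose by 1.41 against 2.498.

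Some values carry a limit of counting. Strand use in counting was not stated, and exons of *Bach2*, *Cacna1h*, *Cpeb3*, *E2f8*, *Emc7*, *Ezh2*, *H2-Aa*, *H2-Ab1*, *Hsp90b1*, *Kdm6b*, *Lacc1*, *Myb*, *Pax5*, *Pdia3*, *Pltp*, *Rbbp4*, *Rbbp7*, *Rpn2*, *Suz12*, *Tpi1* and *Txndc5* overlap an exon of a gene on the other strand, whose reads may then not be told apart. *Csf2rb* and *Csf2rb2*, *Ly6c2*, *Xlr3a* and *Xlr3b*, and the *H2* genes have close paralogues, so their levels are uncertain where reads were shared.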

How the data were processed

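Stranded poly(A) RNA libraries of 15 samples were deposited by the authors as one table of RPM values per gene (reads over a gene's exons, scaled to library size), made with TopHat2 on mm9 and UCSC known genes, with versions not given in the sources used here. The 12 cultured libraries were used, and naive B cells were not. The deposited RPM values were whole multiples of 1 read for at least 99.9954% of values (tolerance 0.00051 RPM), which gave 19421830 to 26307413 reads per library. 3 reads, the limit a count of 0 allows, were 0.114 to 0.1545 RPM, for counting error only. The 92 genes without a symbol held at most 0.0905% of reads.

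RPKM was computed as RPM per kilobase of deposited gene length. Genes that reached an RPKM of 1 in 3 or more of the 12 libraries were fitted with limma 3.58.1 (R 4.3.3) on log2(RPKM + 0.25) with a variance trend, and p-values were adjusted by Benjamini-Hochberg over all genes tested, with a threshold of 0.05. The contrasts were Pb against actB with GSK343, the same with DMSO, and their difference. The replicate number was a block, since the comparison was set as paired by that number. Deviations from group means correlated at 0.165 to 0.735 in the 18 pairs of same-numbered libraries, and at -0.621 to 0.376 in the 36 others. By number the range was 0.165 to 0.528 for 1, 0.446 to 0.735 for 2 and 0.223 to 0.387 for 3. For 1 and 3 it overlaps that of differently numbered pairs. The pairing comes from the numbers in the titles. Alternatives were the block, pseudocount, filter, scaling, variance model, array weights, edgeR 4.0.16 on recovered reads and libraries left out. The fit was tested on simulated data. Results for some genes are not reported here. The members and gene lists were chosen with earlier results of these data known.

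Named genes were the 10 largest called rises and falls (length of at least 200, mean RPKM of at least 10 in the higher group, groups not overlapping, no predicted genes), the 10 largest called differences each way (mean RPKM of at least 5 in a group, same sign in all 3 replicate numbers), the 5 most abundant members of each list and those called in the difference, a fixed set of regulators and genes linked to EZH2, and the 5 largest called changes each way among primed genes with H3K27me3 (mean RPKM of at least 10 in the higher group). Promoters were taken from RefSeq (GRCm38.p6) and positions of genes from a mm9 annotation.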

Additional observations from a re-analysis of the deposited data

Results flagged for a closer look

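The change from actB to Pb differed between GSK343 and DMSO by the limma test of the difference itself in 134 genes. Those named in the text or called in opposite directions are given here with their log2 difference, GSK343 minus DMSO. Its sign refers to the change from actB to Pb and not to the level. *Tigit*, with a positive difference, had lower means with GSK343 in actB (4.68 against 8.86 RPKM) and in Pb (17.1 against 18.6). *Shank1*, *Ifitm1* and *Myo1f*, with a negative difference, had higher means with GSK343 in both cell types. A positive difference was found for *Epha2* (1.602), *Thbd* (1.231), *Fcer1g* (1.165), *Serpine2* (1.021), *Ccr10* (0.9555), *Gpnmb* (0.9543), *Serpinb1a* (0.9051), *Myb* (0.8343), *Tigit* (0.8255), *Cd93* (0.7933), *Samsn1* (0.7756), *Phlda3* (0.7092) and *Cdkn2a* (0.5615). *Thbd*, *Gpnmb* and *Ccr10* have a group whose mean is close to or under the pseudocount of 0.25 RPKM, and over the alternatives their differences were as low as 0.4745, 0.3533 and 0.6331.

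A negative difference was found for *Pltp* (-1.318), *Camkk1* (-1.258), *Bank1* (-1.226), *Scimp* (-1.201), *Il5ra* (-1.147), *Myo1f* (-1.108), *Csf2rb2* (-1.096), *Tspan15* (-1.088), *Ifitm1* (-1.083), *Rap1gap2* (-0.9718), *Shank1* (-0.929), *Plekha1* (-0.7109), *Ms4a1* (-0.6784), *Socs2* (-0.6726), *Cpeb3* (-0.6073), *Csf2rb* (-0.5878), *Bhlhe41* (-0.5506), *S1pr1* (-0.4511), *Pik3cd* (-0.4267), *S1pr4* (-0.4082) and *Pou2f2* (-0.3591). *Shank1* and *Myo1f* also have such a group, and their differences were as small as -0.3425 and -0.7605. The Pb libraries with GSK343 carry another cytokine in their stimulation label than the rest, unlike the culture protocol, and if that label holds, inhibitor and cytokine cannot be told apart in these values.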

How the results depend on the processing

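With 12 libraries, 3 a group, the 95% interval of the difference was ±0.199 (log2) for the median gene. Pb against actB was called for 8514 genes with GSK343, and DMSO calls were kept at 87.8% to 93.1% under the alternatives run. The difference was called for 134 genes, and for 229 with a pseudocount of 1, 57 with no filter, 493 with array quality weights, 285 with edgeR on TMM and 273 on RLE factors. With libraries left out it ranged from 0 (without replicate 1 or 3 in every group) to 246 (without replicate 2 in every group), and with single libraries from 14 (without actB with GSK343 replicate 3) to 230 (without Pb with GSK343 replicate 2). The share of called genes that were higher was 49.62% after median scaling, 49.69% with TMM and 49.66% with RLE. The cause was not tested.

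Without the replicate block, and so without the pairing, the difference was called for 21 genes, all among the 134, and 7775 of the 8514 calls with GSK343 were shared.

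Signs turned for genes that were not called. Under median scaling, TMM and RLE the log2 fold changes were 0.05238, 0.05643 and 0.05627 for *Pcna*, 0.1374, 0.1434 and 0.1431 for *Pkm*, and 0.128, 0.1287 and 0.1284 for *Fdps*. With 1 library left out they ranged from -0.06564 to 0.06821 for *Pkm*, -0.1163 to 0.0792 for *Fdps*, -0.008713 to 0.04239 for *Suz12*, -0.009258 to 0.06673 for *Srebf2* and -0.02971 to 0.08043 for *Stat2*. Without replicate 1 in every group they were 0.01228 for *Pkm*, 0.0868 for *Fdps* and -0.04993 for *Stat2*, without replicate 2 -0.005212 for *Suz12* and -0.02441 for *Srebf2*, and without replicate 3 0.01022 for *Fdps*. Of 143 named log2 fold changes that were called, 130 lost no call under any alternative. Of 26 named differences, none kept its call under every alternative.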
